A study of Mus musculus with 6 samples.

Results

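The potassium channel gene family was described in hippocampal messenger RNA of mice that lost Dicer1 in adult forebrain neurons and of their controls. Members were all gene symbols that begin with Kcn and a lower-case letter, each read through 1 transcript (of all listed for the symbol, the one with most counts on average), and a mean of 10 counts or more over the 6 libraries was required. Of 94 such symbols among 25896 symbols in the files, 78 met the rule and 76 had enough counts to be tested. The other 16 symbols (Kcna7, Kcna10, Kcne1, Kcne2, Kcne3, Kcne4, Kcnj1, Kcnj5, Kcnj13, Kcnk5, Kcnk7, Kcnk15, Kcnk16, Kcnmb3, Kcnn4 and Kcnv2) averaged under 10 counts, and Kcnj1 had none in any library. Among the members, Kcng3 and Kcnk18 were too low for the test.

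The Dicer1-ifKO group comprised C57BL/6 males homozygous for a floxed Dicer1 allele that also carried CaMKIIa-creERT2, a tamoxifen-dependent Cre recombinase under a promoter of forebrain excitatory neurons. The WT group carried the same floxed alleles without Cre, and both groups were given tamoxifen (TMX). Animals were 3 months old and were taken 3 weeks after the drug. Effects of losing Dicer1 and of carrying an active transgene therefore cannot be told apart. Each group had 3 libraries, each from the pooled hippocampal RNA of 3 mice per the labels, which makes 9 mice per genotype where the series' design text gives 12. The difference is not resolved here. The values hold excitatory neurons together with every other cell of the tissue.

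Potassium channels let potassium ions leave or enter a cell and so set its resting potential, the width of its action potentials and the pause after them. Voltage-gated (Kv) members open on depolarization, calcium- and sodium-activated members follow ion entry, inward rectifiers (Kir) and 2-pore (K2P) members act near rest, and auxiliary subunits alter the gating or delivery of the pores. Dicer cuts microRNA precursors, and mature microRNAs lower the stability or translation of mRNAs that pair with their seed, mostly in the 3′ UTR; in the mouse hippocampus, miR-324-5p is known to act on Kcnd2, which encodes Kv4.2.

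A pair of microRNAs and sites from the family are shown because 3 Kv3 genes described further on share 1 seed match, and because the Kcnd2 site belongs to a known pair. MicroRNA sequences are those of RefSeq (GRCm38.p6), with the seed, bases 2 to 8, in capitals. Sites were read from the longest annotated 3′ UTR among GENCODE M21 models of the gene (GRCm38), 5′ to 3′ on the gene's strand. The 7 bases complementary to the seed are in capitals. The UTR read for Kcnc1 has 5043 bases, whereas the model matched to its counted transcript has 2827 bases in all. The printed Kcnc1 site may thus lie outside that transcript.
mmu-let-7c-5p: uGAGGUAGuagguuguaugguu
Kcnc1, chr7:46429401-46429428, plus strand: aaacccatagtCTACCTCtacccatgga
Kcnc2, chr10:112464465-112464492, plus strand: ctttgaactccCTACCTCctacccatgt
Kcnc4, chr3:107438785-107438812, minus strand: agattggggttCTACCTCccaccccaca
mmu-miR-324-5p: cGCAUCCCcuagggcauuggugu
Kcnd2, chr6:21727990-21728017, plus strand: tgtttctcatgGGGATGCacactagtat

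Counts summed over 1 transcript per gene came to between 15409074 and 20677845 in the Dicer1-ifKO libraries and between 11832794 and 16125481 in the WT libraries, with WT replicate 1 the shallowest. Levels below are in CPM, counts scaled to TMM library sizes. Dicer1 itself, which has 1 deposited transcript over the whole gene and so gives no check of the deletion, had 58.2, 62.9 and 58.0 CPM in Dicer1-ifKO libraries and 55.6, 62.0 and 55.8 CPM in WT libraries (log2 fold change 0.04, SE 0.06, adjusted p = 0.849, edgeR). The tissue label was borne by its markers: summed pyramidal neuron markers were at 5400 to 5790 CPM in Dicer1-ifKO and 5290 to 5410 CPM in WT, and all 6 dentate granule cell markers were detected, at 358 to 391 CPM in Dicer1-ifKO and 389 to 412 CPM in WT. Summed thalamus and striatum markers were also present, at 92.5 to 100 CPM in Dicer1-ifKO and 88.3 to 96.1 CPM in WT. Choroid plexus markers summed to 20.8 to 35.1 CPM in Dicer1-ifKO and 27.9 to 41.3 CPM in WT. Sums for inhibitory neurons (706 to 743 CPM in Dicer1-ifKO, 677 to 733 CPM in WT), microglia (351 to 359 CPM in Dicer1-ifKO, 352 to 367 CPM in WT) and oligodendrocytes (3950 to 4550 CPM in Dicer1-ifKO, 3810 to 4680 CPM in WT) overlapped between the groups, whereas 8 astrocyte markers summed to 3580 to 3740 CPM in Dicer1-ifKO and 3380 to 3550 CPM in WT. Slc1a2 made up most of that sum, at 2050 to 2210 CPM in Dicer1-ifKO and 1800 to 2030 CPM in WT, and 4 of the 8 had a log2 fold change above 0. Camk2a made up most of the pyramidal sum, at 3500 to 3710 CPM in Dicer1-ifKO and 3280 to 3390 CPM in WT (log2 fold change 0.11, SE 0.05). Of the 8 pyramidal markers, 3 had a log2 fold change above 0 and 5 below. Of the 6 dentate markers, 2 had a log2 fold change above 0. Calb1 was lower in Dicer1-ifKO (log2 fold change -0.27, SE 0.05, adjusted p = 0.0323, edgeR), Prox1 stood at 0.01 (SE 0.05), and Plk5, with 27.4, 27.9 and 32.4 CPM in Dicer1-ifKO libraries and 24.6, 21.2 and 25.5 CPM in WT libraries, stood at 0.31 without overlap (SE 0.08, adjusted p = 0.176, edgeR). The part of these markers in the results below was not tested, and in bulk tissue fewer cells of a type and less RNA per cell cannot be told apart.

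No potassium channel gene passed the test between the genotypes, but the small differences of the more abundant members lay mostly on 1 side. By edgeR's quasi-likelihood F-test, with p-values adjusted over 17405 genes by Benjamini and Hochberg, 0 of 76 members had an adjusted p below 0.05, and 0.161% of all genes tested did. At an unadjusted p below 0.05 there were 12 members, all with the higher level in Dicer1-ifKO, among them Kcnt1, Kcns2, Kcnc2, Kcnj6, Kcnc1, Kcng1, Kcnj9, Kcnj11, Kcna2 and Kcnn2. That is 15.8% of the members tested, where 10.4% of all genes were at that level, 5.63% with the higher value in Dicer1-ifKO and 4.8% with the lower. In all, 49 of 76 members (64.5%) had a log2 fold change above 0, against 49.0% of all genes, and the median was 0.05, against 0.00. The 3 values of each group did not overlap in 9 members higher in Dicer1-ifKO and 1 lower, where 7.99% and 8.08% of all genes did so in these directions.

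**Figure D1:**
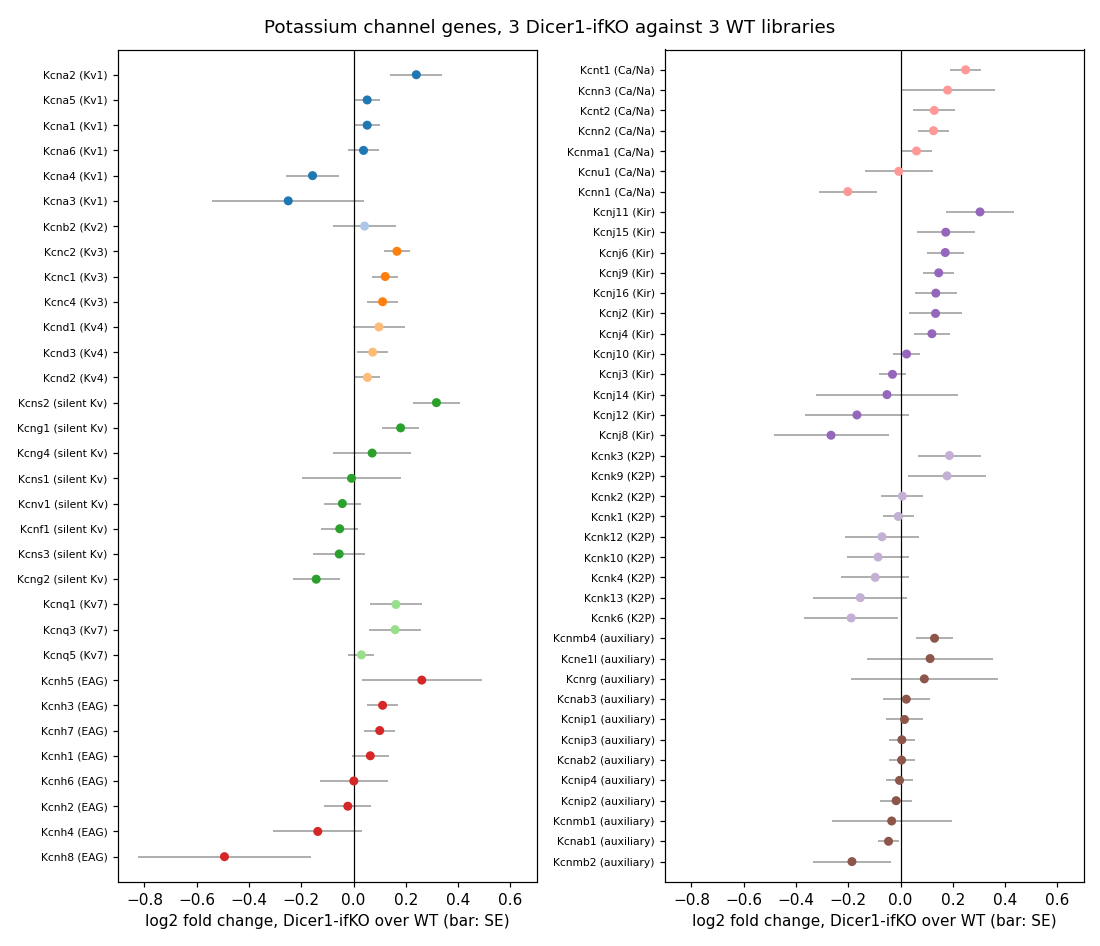
Log2 fold change of Dicer1-ifKO over WT for 72 potassium channel genes, 1 point per gene with its standard error as a bar, grouped and coloured by role (n = 3 libraries per genotype). Points lie between -0.49 (Kcnh8) and 0.32 (Kcns2), and 6 of 9 K2P genes lie below 0.

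The split by level was made after the values were seen, at 20 CPM, close to the median of all genes tested. Of 42 members at 20 CPM or more, 34 (81.0%) were above 0, against 49.8% of the 8697 genes at that level, and 11 (26.2%) were higher at an unadjusted p below 0.05, against 8.04% (14.3% in either direction). Of the 34 members under 20 CPM, 15 (44.1%) were above 0, against 48.1% of all genes at that level, and 1 (2.94%) was higher at that p, against 3.23%. By symbol, the 64 pore-forming members tested had 42 log2 fold changes above 0 and a median of 0.06, and the 12 auxiliary ones 7 above 0 and a median of 0.00. These members were chosen with earlier results of these data known, so the counts are descriptions.

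Levels between genes were compared per kilobase of transcript, which could be done for the 37 members whose deposited coordinates matched GENCODE models of 1 length. They covered about 3 orders of magnitude. Kcnab2, the Kvβ2 subunit that joins Kv1 channels, led with 140 ± 7.10 CPM per kilobase in Dicer1-ifKO and 140 ± 4.14 in WT (SD, n = 3 each). Kcnab1, another Kvβ subunit, followed at 46.5 ± 0.849 CPM per kilobase in Dicer1-ifKO and 48.0 ± 0.247 in WT, every Dicer1-ifKO value lying under every WT value. Kcnn2, the SK2 channel of the calcium-activated afterhyperpolarization, had 38.7 ± 0.616 CPM per kilobase in Dicer1-ifKO and 35.4 ± 3.35 in WT.

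Kcnj10 (the astroglial Kir4.1) had 32.4 ± 0.845 CPM per kilobase in Dicer1-ifKO and 31.9 ± 0.998 in WT, and Kcnj3, the GIRK1 subunit, 30.1 ± 1.00 in Dicer1-ifKO and 30.7 ± 0.480 in WT. Kcnip3, Kcnmb4, Kcnd2, Kcnq5, Kcnip1 and Kcnab3 were also among the 12 highest, from 27.2 down to 11.6 CPM per kilobase in Dicer1-ifKO and 27.0 down to 11.3 in WT. Within Kcnip3 and Kcnmb4, and within Kcnq5 and Kcnip1, the Dicer1-ifKO means differed by less than the larger SD of the pair. The lowest of the 37, Kcng3, had 0.208 ± 0.094 CPM per kilobase in Dicer1-ifKO and 0.177 ± 0.00727 in WT.

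**Figure D2:**
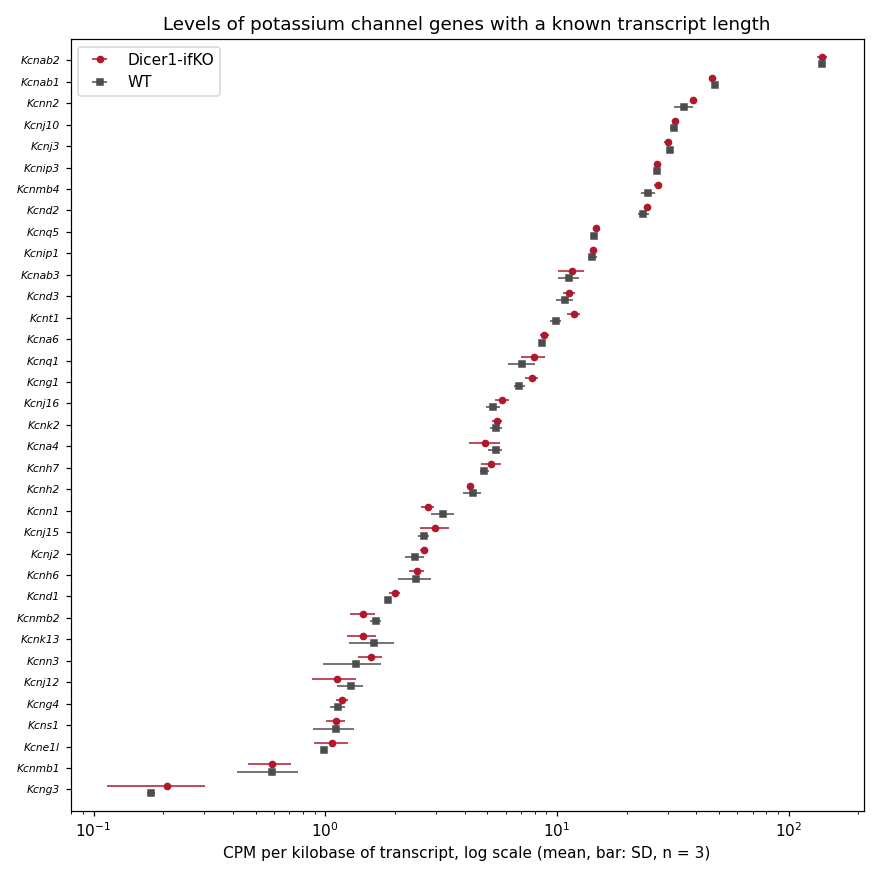
Level of 35 potassium channel genes with a known transcript length, in CPM per kilobase of transcript on a log axis; points are means of 3 libraries and bars SDs, circles Dicer1-ifKO and squares WT. Kcnab2 stands alone near 140, and for most genes the symbols of the genotypes lie on top of each other.

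Kv3 channels open and close fast and let neurons fire at high rates. Their gene Kcnc2 (chromosome 10, 112271123 to 112466304, GRCm38) had 111, 105 and 100 CPM in Dicer1-ifKO libraries and 97.5, 96.1 and 89.2 CPM in WT libraries, every Dicer1-ifKO value above every WT value (log2 fold change 0.17, SE 0.05, adjusted p = 0.25, edgeR). Kcnc1 had 140, 130 and 139 CPM in Dicer1-ifKO libraries and 123, 127 and 126 CPM in WT libraries, again without overlap (0.12, SE 0.05, adjusted p = 0.37, edgeR). Kcnc4 had 58.3, 53.6 and 60.9 CPM in Dicer1-ifKO libraries and 54.0, 52.1 and 54.0 CPM in WT libraries; here the lowest Dicer1-ifKO library lay under the highest WT ones (0.11, SE 0.06, adjusted p = 0.541, edgeR). Kv3 channels are known for parvalbumin interneurons, and Pvalb had 23.4, 20.3 and 22.7 CPM in Dicer1-ifKO libraries and 23.8, 20.8 and 24.2 CPM in WT libraries (-0.05, SE 0.08). Of the 8 inhibitory neuron markers, 6 had a log2 fold change above 0, Gad1 (0.09) and Gad2 (0.07) among them, and Pvalb and Vip (-0.23) were below.

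Among Kv1 genes, whose channels sit along axons and at their ends, Kcna2 (Kv1.2) had 24.6, 25.6 and 22.4 CPM in Dicer1-ifKO libraries and 15.6, 22.8 and 22.1 CPM in WT libraries. WT replicate 1 lay well under the other 5 libraries, and the groups overlapped (log2 fold change 0.24, SE 0.10, adjusted p = 0.415, edgeR). Without that library the log2 fold change was 0.10. Kcna4 (Kv1.4, a fast inactivating channel) had 26.2, 24.9 and 19.4 CPM in Dicer1-ifKO libraries and 25.0, 24.9 and 28.1 CPM in WT libraries (-0.16, SE 0.10, adjusted p = 0.614, edgeR). The deposited model of Kcna5 reaches from 126532553 to 126698192 on chromosome 6 and contains Kcna1 (Kv1.1, 126636463 to 126645801); the count of Kcna1 was 83.7% to 86.5% of that of Kcna5 in every library, so the level of Kcna5 is uncertain. Kcna1 had 172, 163 and 161 CPM in Dicer1-ifKO libraries and 158, 164 and 156 CPM in WT libraries (0.05, SE 0.05). With Kcna5 left out of the family, 48 of 75 tested members (64.0%) had a log2 fold change above 0, and the median was 0.04.

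Kcnb2, a Kv2 delayed rectifier, had a log2 fold change of 0.04 (SE 0.12). Silent Kv subunits form no channel alone and join Kv2 pores; 3 of 8 tested were above 0, and 2 of these had an unadjusted p below 0.05. Kcns2 (Kv9.2) had 24.7, 30.3 and 26.7 CPM in Dicer1-ifKO libraries and 20.4, 21.1 and 23.9 CPM in WT libraries, without overlap. Its fitted difference (log2 0.32, SE 0.09, adjusted p = 0.166, edgeR) was the highest of the 76 members. Kcng1 (Kv6.1) had 31.4, 30.0 and 34.1 CPM in Dicer1-ifKO libraries and 28.8, 26.4 and 29.3 CPM in WT libraries, also without overlap (0.18, SE 0.07, adjusted p = 0.378, edgeR). The more abundant Kcnv1 and Kcnf1 had log2 fold changes of -0.04 (SE 0.07) and -0.05 (SE 0.07).

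The Kv4 genes, which carry the A-type current of dendrites, differed little. Kcnd2, whose miR-324-5p match is printed above, had 121, 129 and 129 CPM in Dicer1-ifKO libraries and 115, 128 and 122 CPM in WT libraries. The groups overlapped, and the log2 fold change was 0.05 (SE 0.05, adjusted p = 0.773, edgeR). Kcnd1 did not overlap between the groups, by a very small margin (0.10, SE 0.10), and Kcnd3 did overlap (0.07, SE 0.06).

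The Kv7 class includes the channels of the M current that restrains repetitive firing, though not every Kv7 member carries it. Kcnq1, Kcnq3 and Kcnq5 had log2 fold changes between 0.03 and 0.16, and none of these 3 had an unadjusted p below 0.05. Kcnq3 had 21.9, 24.7 and 20.5 CPM in Dicer1-ifKO libraries and 15.6, 21.6 and 22.1 CPM in WT libraries (0.16, SE 0.10; 0.03 without WT replicate 1). Of the EAG genes, 5 of 8 were above 0; Kcnh3 (Kv12.2) had the most counts (0.11, SE 0.06, adjusted p = 0.518, edgeR), and Kcnh5 and Kcnh8, both under 3 CPM on average, had 0.26 (SE 0.23) and -0.49 (SE 0.33). Kcnh5 stood at 0.01 without Dicer1-ifKO replicate 2, and Kcnh8 at -0.32 without WT replicate 3.

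The smallest p of the family belonged to Kcnt1, the sodium-activated channel Slack. Kcnt1 (chromosome 2, 25877873 to 25918273) had 73.0, 70.3 and 64.5 CPM in Dicer1-ifKO libraries and 54.4, 60.6 and 59.2 CPM in WT libraries. Every Dicer1-ifKO value lay above every WT value, and the means of 69.3 ± 4.36 CPM in Dicer1-ifKO and 58.1 ± 3.24 CPM in WT (SD, n = 3 each) stood 0.25 apart as fitted log2 values (SE 0.06, adjusted p = 0.116, edgeR). Kcnt1 was called under 2 of 15 other ways of processing: the DESeq2 test, which called 2 members (0.46% of all genes), and edgeR with no filter on low counts, which called 2 members, it and Kcns2 (0.673% of all genes). Kcnt2, its relative Slick, had a log2 fold change of 0.13 (SE 0.08) with overlapping groups.

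Of the calcium-activated channels, Kcnn2 had 140, 144 and 144 CPM in Dicer1-ifKO libraries and 118, 142 and 131 CPM in WT libraries. The groups overlapped through WT replicate 2, and the log2 fold change was 0.13 (SE 0.06, adjusted p = 0.442, edgeR). Kcnn1 (SK1) pointed the other way, with 11.0, 10.7 and 12.1 CPM in Dicer1-ifKO libraries and 14.4, 13.4 and 11.4 CPM in WT libraries (-0.20, SE 0.11, adjusted p = 0.541, edgeR). Kcnma1, the large-conductance BK pore, had 245, 256 and 221 CPM in Dicer1-ifKO libraries and 210, 256 and 225 CPM in WT libraries (0.06, SE 0.06). Kcnu1, grouped with these genes but known as a sperm channel rather than a calcium-activated one, had 6.95 to 8.11 CPM in Dicer1-ifKO and 7.30 to 8.85 CPM in WT.

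Inward rectifiers held 3 of the 12 members with a small p. Kcnj6 and Kcnj9 encode GIRK2 and GIRK3, which G-protein coupled receptors open through Gβγ. Kcnj6 had 88.8, 99.9 and 90.5 CPM in Dicer1-ifKO libraries and 71.6, 89.8 and 85.6 CPM in WT libraries (log2 fold change 0.17, SE 0.07, adjusted p = 0.365, edgeR). Kcnj9 had 70.3, 70.7 and 63.7 CPM in Dicer1-ifKO libraries and 57.5, 63.9 and 63.0 CPM in WT libraries (0.15, SE 0.06, adjusted p = 0.381, edgeR). In both, the lowest Dicer1-ifKO library lay just under the highest WT library. Their partner Kcnj3 gave no such difference, with 154, 163 and 153 CPM in Dicer1-ifKO libraries and 160, 163 and 158 CPM in WT libraries (-0.03, SE 0.05, adjusted p = 0.86, edgeR); 31.1% of its exon bases lie in a gene of the other strand.

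Kcnj11, the Kir6.2 pore of ATP-sensitive channels, had 7.66, 8.55 and 8.06 CPM in Dicer1-ifKO libraries and 5.79, 6.23 and 7.50 CPM in WT libraries, without overlap (0.30, SE 0.13, adjusted p = 0.397, edgeR). Kcnj8 and Kcnj12, on average under 3 CPM in both genotypes, had log2 fold changes of -0.27 (SE 0.22) and -0.17 (SE 0.20); Kcnj12 stood at -0.02 without Dicer1-ifKO replicate 1 and at -0.28 without Dicer1-ifKO replicate 2. Kcnj10, the glial member, had 171 to 180 CPM in Dicer1-ifKO and 169 to 179 CPM in WT (0.02, SE 0.05). The astrocyte marker sum was higher in each Dicer1-ifKO library than in any WT library, but Slc1a2 made up most of it. Of the 8 astrocyte markers, 4 had a log2 fold change above 0 and 4 below, Aqp4 (-0.16) and Gfap (-0.09) among the latter.

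Among leak channels of the K2P class, 3 of 9 tested were above 0, the median log2 fold change was -0.07, and no member had an unadjusted p below 0.05; the difference from the other classes was not tested. Kcnk1 (TWIK-1), the most abundant, had 52.5, 49.0 and 52.1 CPM in Dicer1-ifKO libraries and 52.9, 48.3 and 53.4 CPM in WT libraries (-0.01, SE 0.06). Kcnk6 had 2.66 to 3.89 CPM in Dicer1-ifKO and 3.40 to 4.34 CPM in WT (-0.19, SE 0.18), and Kcnk3 (TASK-1) 9.22 to 10.5 CPM in Dicer1-ifKO and 7.68 to 9.35 CPM in WT (0.19, SE 0.12). Kcnk6 stood at -0.06 without Dicer1-ifKO replicate 1 and at -0.30 without Dicer1-ifKO replicate 2, and Kcnk3 at 0.11 without WT replicate 2.

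Auxiliary subunits were among the most abundant members and scattered around 0. Kcnab1 was the only tested member whose Dicer1-ifKO values, 154, 150 and 149 CPM, all lay under the WT values, 155, 156 and 156 CPM; the log2 fold change was -0.05 (SE 0.04, adjusted p = 0.777, edgeR). Kcnab2 had a log2 fold change of 0.00 (SE 0.05), Kcnab3 of 0.02 (SE 0.09), and the KChIP genes Kcnip1, Kcnip2 and Kcnip3, whose calcium-binding products deliver Kv4 channels, of 0.01 (SE 0.07), -0.02 (SE 0.06) and 0.00 (SE 0.05). Kcnmb4, the neuronal β4 subunit of BK channels, had 36.3, 38.7 and 36.6 CPM in Dicer1-ifKO libraries and 31.7, 36.3 and 33.8 CPM in WT libraries (0.13, SE 0.07, adjusted p = 0.529, edgeR), and 50.7% of its exon bases lie in a gene of the other strand. Kcnmb2 (-0.19, SE 0.15), Kcne1l (0.11, SE 0.24) and Kcnrg, a regulator of Kv channels (0.09, SE 0.28), were at or under 5.04 CPM in all libraries.

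**Figure D3:**
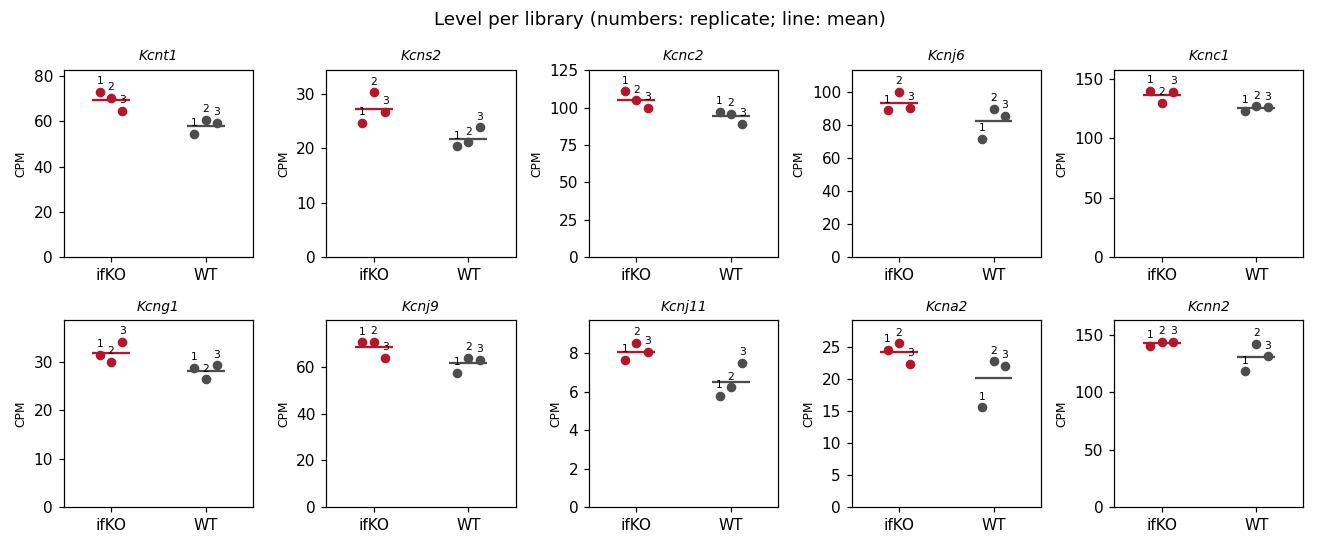
Level in CPM in each library for 10 potassium channel genes with an unadjusted p below 0.05, Dicer1-ifKO on the left of each panel and WT on the right; numbers give the replicate and lines the mean of 3 libraries. The axes start at 0, and WT replicate 1 is the lowest library in 8 of the 10 panels.

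By the letter after Kcn, which joins pores and auxiliaries under a (Kcna with Kcnab) and m (Kcnma with Kcnmb) and holds the KChIP genes under i, the number of tested members above 0 was 3 of 3 in Kcnd and 2 of 2 in Kcnt; not every letter is described here. It was 6 of 9 in Kcna, 2 of 3 in Kcng, 5 of 8 in Kcnh, 8 of 12 in Kcnj, 3 of 9 in Kcnk, 2 of 4 in Kcni and Kcnm, 2 of 3 in Kcnn and 1 of 3 in Kcns. Letter medians ran from -0.07 in Kcnk to 0.19 in Kcnt among letters with at least 2 tested members. Kcne and Kcnr held 1 tested member above 0 each, and Kcnf, Kcnu and Kcnv 1 tested member below 0 each.

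The shift was unevenly carried by the libraries. WT replicate 1 was the lowest of the 6 libraries in 27 of 76 members (35.5%), against 23.3% of all genes, and Dicer1-ifKO replicate 2 the highest in 26 members (34.2%), against 16.3%. The median deviation of the members from their 6-library mean was 0.021, 0.054 and 0.020 (log2) in Dicer1-ifKO replicates 1, 2 and 3, and -0.052, 0.014 and -0.015 in WT replicates 1, 2 and 3. All 3 Dicer1-ifKO medians lay above all 3 WT medians, with WT replicate 2 close under Dicer1-ifKO replicates 1 and 3. Without Dicer1-ifKO replicate 2, the median log2 fold change of the members was 0.027, against 0.047 with all libraries. In that fit 9 of 77 members (11.7%) had an unadjusted p below 0.05, against 8.25% of all genes. Without WT replicate 1, 7 of 78 members (8.97%) had an unadjusted p below 0.05, against 8.69% of all genes. The median log2 fold change without WT replicate 1 was 0.039. Of the 12 members with a small p, Kcna2 then stood at 0.10 (0.24 with all libraries), Kcnn2 at 0.06 (0.13), Kcnj6 at 0.09 (0.17) and Kcnj9 at 0.10 (0.15). Kcnc1, Kcnc2, Kcng1, Kcns2, Kcnt1 and Kcnj11 had log2 fold changes between 0.11 and 0.28 without it. Log2 fold changes also increased with transcript length, with a Spearman rho of 0.19 over 11741 genes and 0.22 over the 36 tested members with a length, values across genes that share libraries; with a length term for each library the median of the members was 0.026.

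**Figure D4:**
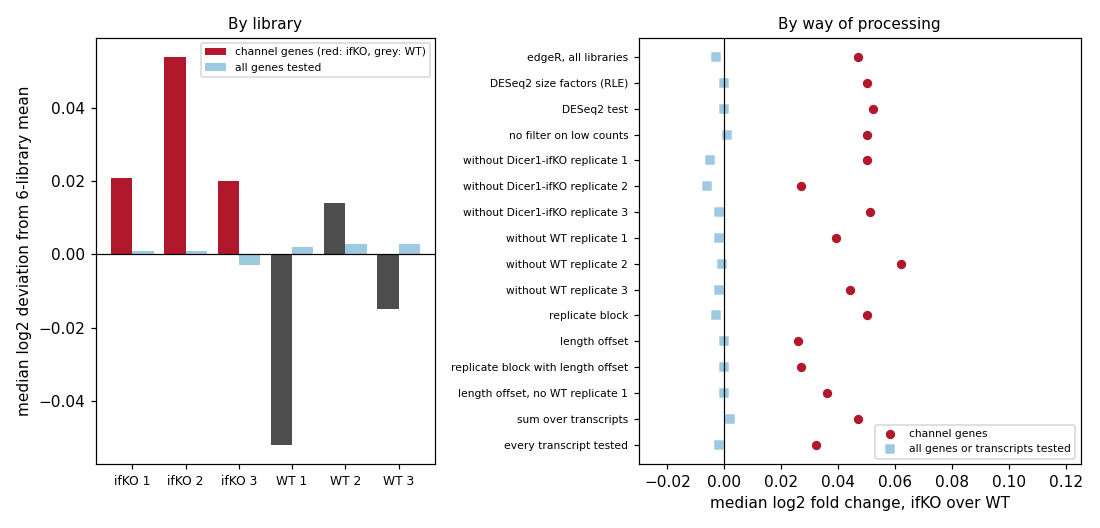
Left, median log2 deviation from the 6-library mean in each library, for the 76 potassium channel genes and for all genes tested; right, median log2 fold change of Dicer1-ifKO over WT for both under each way of processing. WT replicate 1 is lowest at -0.052, and the channel medians on the right lie between 0.026 and 0.062 while those of all genes lie near 0.

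Single transcripts were tested as well. Of 214 Kcn transcripts with enough counts, 0 had an adjusted p below 0.05 in edgeR (0.0777% of all 60500 transcripts tested did) and 37 had an unadjusted p below 0.05 (9.44% of all). Several of these share exons and so reads. Log2 fold changes ran from 0.11 to 0.28 over the 3 transcripts of Kcnc1 and from 0.16 to 0.52 over the 3 of Kcng1, genes singled out after their values were seen.

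Proteins that assemble with, anchor or modify these channels were taken as a list of 34 partner genes. Of 33 tested, 0 had an adjusted p below 0.05 in edgeR (0.161% of all genes did), and 18 (54.5%) were above 0, against 49.0% of all genes. At an unadjusted p below 0.05 there were 5 higher (15.2%) and 1 lower in Dicer1-ifKO, against 5.63% and 4.8% of all genes. Among all genes at 20 CPM or more, 8.04% were higher at that p. The groups did not overlap in 4 partners higher and 5 lower in Dicer1-ifKO, where 7.99% and 8.08% of all genes did so. Cntnap1, an axonal protein beside the node of Ranvier, had 237, 218 and 234 CPM in Dicer1-ifKO libraries and 188, 207 and 208 CPM in WT libraries, without overlap (log2 fold change 0.19, SE 0.05, adjusted p = 0.158, edgeR). The scaffold gene Dlg2 had 293, 296 and 276 CPM in Dicer1-ifKO libraries and 237, 278 and 247 CPM in WT libraries, and the groups overlapped through WT replicate 2 (0.18, SE 0.05, adjusted p = 0.199, edgeR). The other small p were those of the kinase gene Wnk1 (0.16, SE 0.05), of Cntnap2 (0.11, SE 0.05), which clusters Kv1 channels next to nodes, of Adam23 (0.10, SE 0.05) and of Vapa (-0.13, SE 0.05), whose product binds Kv2 channels.

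Among the most abundant partners by counts were Calm2 and Calm3, which encode calmodulin, and Dlg4. Calm2 did not overlap between the groups, at 1410 to 1450 CPM in Dicer1-ifKO and 1500 to 1540 CPM in WT (-0.08, SE 0.04), while Calm3 (-0.08, SE 0.05) and Dlg4 (-0.01, SE 0.04) did.

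Seed matches were counted as a description in the longest annotated 3′ UTR of each gene, for 7 microRNAs known from neurons or channel mRNAs (miR-9-5p, let-7c-5p, miR-128-3p, miR-26a-5p, miR-29a-3p, miR-138-5p and miR-324-5p), on the transcribed strand. A match to at least 1 of them was present in 46 of 76 members (60.5%), against 55.0% of 13628 genes with such a UTR, and the median 3′ UTR was 1808 bases in members and 1191 bases in all those genes. The median log2 fold change was 0.05 in members with a match and 0.04 in members without one. For all genes these medians were 0.01 and -0.02.

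The let-7 heptamer CTACCTC was present in 9 members (11.8%), against 10.6% of the genes, among them Kcnc1, Kcnc2, Kcnc4, Kcnj3, Kcnj6, Kcnk3 and Kcnk6. Over the 9 the median log2 fold change was 0.17, against 0.04 in members without it, while all genes with and without it had 0.02 and -0.01. The set was singled out among 7 after its values were seen and holds several genes of the Kv3 family. Within it, Kcnc1, Kcnc2 and Kcnj6 were among the 12 members with a small p, whereas Kcnj3 (-0.03) and Kcnk6 (-0.19) were below 0. For Kcnc1 and Kcnj6 the model matched to the counted transcript is shorter than the UTR that was read. For the other 6 microRNAs the members with a match had medians between 0.04 and 0.10. The heptamer of miR-324-5p, GGGATGC, was present in 11 members (14.5%, against 8.8% of the genes), with a median of 0.07.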

How the data were processed

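Polyadenylated RNA from 6 hippocampal pools was sequenced after a stranded kit, per the labels' protocols; TopHat2 2.0.6 over Bowtie2 2.0.5, SAMtools 0.1.18, DESeq2 and CASAVA 1.8.2 are listed with GRCm38, per the submitters' processing notes. The read counter, its strand setting and the annotation release are not stated in these sources. Each deposited file holds a raw count and a normalised count (signal, the count over 1 factor per library) for 76938 transcripts, per the file headers; only the raw counts were used. Reads in shared exons were counted for each transcript, so 1 transcript per symbol was taken, the one with most counts on average.

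Genotypes were compared in R 4.3.3 by the quasi-likelihood F-test of edgeR 4.0.16 (TMM, filterByExpr with a minimum count of 10, genotype only, Benjamini-Hochberg over 17405 genes, threshold 0.05; prior count 0.125), tested on simulated data. Library totals of 11832794 to 20677845 put 3 counts at 0.146 to 0.255 CPM; libraries of a genotype had a common biological coefficient of variation of 0.0464. The labels call the replicates biological; no pair within a genotype agreed within sampling noise (chi-square per degree of freedom 1.75 to 4.35). For levels per kilobase and the correlation, lengths came from GENCODE M21 models with identical ends whose lengths agreed within 5%. The length term also used the closest model of the symbol, clipped to the deposited span, so that 71 of 78 members had a length. Genes without a length were left unadjusted by that term. Members, lists and tests were chosen with earlier results of these data known. Named were members at an unadjusted p below 0.05, the 6 highest and 6 lowest log2 fold changes at 2 CPM or more, the 12 highest per kilobase, the most abundant of each letter, and partners at an unadjusted p below 0.05 with the 4 most abundant. A few genes that these rules name are not reported here, and counts and medians over the family include them.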

Additional observations from a re-analysis of the deposited data

How the results depend on the processing

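Of the members, 2 were called in the DESeq2 test (Kcnt1 among them, adjusted p 0.0416; 0.46% of all genes called) and 2 with no filter on low counts (Kcns2 and Kcnt1, adjusted p 0.0338 and 0.0184; 0.673% called), and 0 elsewhere. Of the partners, 1 was called in DESeq2 (Cntnap1), 2 with no filter (Cntnap1 and Dlg2) and 1 without WT replicate 2 (Dlg2, adjusted p 0.0202); leaving out a library gave 0 to 1. Non-overlapping members numbered 16 to 25 (20.5% to 32.5%) with a library left out, against 10 (13.2%) with all; over all genes the share was 23.9% to 30.2% with a library left out, against 16.1%. In 64 of 76 members tested, leaving out 1 library moved the log2 fold change by over 1.5 times or changed its sign, among them 30 of the 41 at 0.10 or more in size; Kcna4 then stood at -0.03 without Dicer1-ifKO replicate 3, Kcnmb2 at -0.09 without the same library, Kcnt2 at 0.04 without WT replicate 3, Kcnq1 at 0.06 without Dicer1-ifKO replicate 2 and Kcnn1 at -0.13 without WT replicate 1. The members' median log2 fold change was 0.03 to 0.06, with a library left out or under any other alternative. With the replicate block, 0 members were called, as without it. Then 13 (17.1%) had an unadjusted p below 0.05, against 10.1% of all genes, and the median was 0.05. Deviations of same-numbered libraries gave r = -0.0673, 0.0725 and -0.111 over 15427 genes, and those of other pairs ran from -0.125 to 0.179. The labels do not say whether same-numbered libraries shared a litter or day, and 3 libraries per genotype are too few for these values to decide it. With the length offset Kcnq5 was at -0.02, Kcnj10 at -0.01 and Kcnk1 at 0.01, and the same with the replicate block added; with the offset and no WT replicate 1 (added after seeing the data) Kcnq5 was at -0.02, Kcnu1 at 0.08, Kcnk1 at 0.02, Kcnab3 at -0.04 and Kcnip2 at 0.04. With sums over transcripts Dlg4 was at 0.01. Among the members and partners named by rule, signs turned with a library left out for Kcnu1 (-0.05 to 0.08), Kcnk1 (-0.06 to 0.02), Kcnab3 (-0.07 to 0.12), Kcnip2 (-0.07 to 0.04), Kcnip1 (-0.02 to 0.04), Kcnv1 (-0.08 to 0.02) and Dlg4 (-0.02 to 0.02). Kcnab2 (-0.03 to 0.04) and Kcnip3 (-0.02 to 0.02), both at 0.00 with all libraries, lay on either side of 0 as well. The cause of these changes was not tested. A p above the threshold with 3 libraries per genotype does not show equal levels.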
